A study of Mus musculus with 8 samples.

Results

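The epidermal growth factor (EGF) family ligands and their ErbB receptors were followed through 10 genes: the ligands Ereg, Areg, Hbegf, Btc, Tgfa, Egf and Nrg1 and the receptors Egfr, Erbb2 and Erbb3. They were taken from a one-colour Agilent microarray study as every non-control probe carrying one of these gene names. This gave 12 probes for 10 of the 34859 named genes or transcripts on the array. Egfr had 3 probes and each other gene had 1. All 12 were well above background on all 8 arrays, so that no member was lost to the filter on dim probes.

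The study used satellite cells, the stem cells of skeletal muscle, from hindlimbs of C57BL/6J mice aged 3 to 4 months. After an overnight culture the sorted cells received lentiviral particles carrying either eGFP alone (4 control arrays, called eGFP) or Hoxa9 with eGFP (4 arrays, called Hoxa9), and eGFP-positive cells were sorted 5 days later. Both groups were thus cultured, infected and sorted before and after infection, and the transgenes were genomically integrated cDNAs. Whether the 4 experiments of a group used different animals is not given, and p-values therefore speak only of the spread among these arrays, which may be technical.

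EGF family ligands are made as membrane-anchored precursors that proteases such as ADAM17 release from the cell surface. A ligand brings ErbB receptors together in pairs, and the paired receptors phosphorylate each other and signal through the Ras-MAP kinase and PI3-kinase cascades. Ereg (epiregulin), Areg (amphiregulin), Hbegf (heparin-binding EGF-like growth factor), Btc (betacellulin), Tgfa (transforming growth factor alpha) and Egf bind the EGF receptor, encoded by Egfr. Some of these, Ereg, Hbegf and Btc, also bind ErbB4, while neuregulin 1 (Nrg1) binds ErbB3 and ErbB4. ErbB2 binds no known ligand and serves as partner to the other receptors. Myoblasts respond to such ligands with proliferation and survival, and neuregulin is known from the nerve-muscle junction and from Schwann cells.

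The probes that the results turn on are shown by the first 30 of their 60 bases, 5′ to 3′ as the files give them, to show which sequence stands for each gene.
Ereg: gatagtcatgtaccttgacatagtgaagga
Areg: ctcagaggagtatgataatgaaccacaaat
Btc: ggatccttgtacattttactttacaagaga
Erbb2: ggctatgccaggaacgtgccctgaggaacc
Egfr, probe of NM_207655: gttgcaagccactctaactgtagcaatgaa
Egfr, first probe of NM_007912: tctggaagtatgcagatgccaataatgtct
Egfr, second probe of NM_007912: gaagtgtggccatctgggtacgttcaatgg
In the mm9 coordinates of the files the Ereg probe (plus strand) lay at chr5:91522553-91522612. The Areg probe (plus strand) lay at chr5:91570090-91570149 and the Btc probe (minus strand) at chr5:91786948-91787007. The Erbb2 probe lay at chr11:98298103-98298162, and the 3 Egfr probes at chr11:16813815-16813874, chr11:16783556-16783615 and chr11:16787172-16787231, in that order (all plus strand). Whether a probe lies in coding sequence or in a UTR was not analysed here.

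The arrays and cells were checked as follows. Between 69.6% and 77.5% of spots were well above background, Hoxa9 replicate 4 having the highest share. The transduced gene was read by 2 probes. The brighter, of NM_010456, read -0.98, -0.71, -0.14 and -0.04 on the eGFP arrays and 5.31, 5.44, 5.48 and 5.81 on the Hoxa9 arrays, and rose 63.1-fold (log2 difference 5.98, SE 0.24, adjusted p = 1.71e-05, limma). The other decreased by 1.74 (SE 0.15, adjusted p = 0.00027). Levels are log2 signals relative to each array's 75th percentile, and calls are limma with Benjamini-Hochberg adjusted p under 0.05. Of 8 measured satellite cell and myoblast markers, 5 were lower and 0 higher. A sum over probes weighs the bright ones most, so each list's mean log2 level per array is given beside it. The summed level of these 8 was 244 to 341 times the arrays' 75th percentile in the eGFP arrays and 155 to 180.2 times in the Hoxa9 arrays, and the mean 2.84 to 3.05 against 1.70 to 1.97. The summed fibroblast markers were 18.8 to 31.1 against 34.8 to 42.9, but their means overlapped, at -0.40 to 0.95 against -0.13 to 1.35. Of these 7 markers 1 was higher, Ly6a (4.55). Pdgfra, Col3a1 and Lum, at -0.63, -0.46 and -2.60, were not called, nor were Dcn, Col1a1 and Cd34, at 0.13, 0.97 and 0.42. The summed epithelial markers were 110.4 to 180.3 against 185 to 278, most of it from Krt18, and the means overlapped, at 0.41 to 1.16 against 1.10 to 1.94. Of these 4 markers Cldn4 was higher (1.91), while the defining epithelial markers Epcam and Cdh1 were below the detection filter. The summed smooth muscle markers were 66.5 to 115 against 26.6 to 62.0, nearly all of it from Acta2, and the means overlapped, at -1.81 to -0.77 against -1.49 to -0.35. Of these 6 markers Cnn1 was higher (2.57) and Acta2 lower (-1.32). Laptm5 was the lower 1 of 5 leukocyte markers. Endothelial, macrophage and Schwann cell sums overlapped between the groups, and Ptprc, Tyrobp, Tek, Tie1, Emcn, S100b, Foxd3 and Cdh19 were below the filter. The part of these marker lists in the members' differences was not tested. In such bulk samples fewer cells of a type and less RNA per cell cannot be told apart.

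Of the 7 ligand genes 4 rose with Hoxa9, namely Ereg, Btc, Areg and Hbegf, and none fell. Of the 3 receptor genes, Erbb2 rose by a small amount, and Egfr and Erbb3 did not pass the test. In total 5 of 10 members were higher and 0 lower (limma across all genes, Benjamini-Hochberg adjusted p under 0.05). No member was lower at an unadjusted p under 0.05 either, and none under any alternative processing. Over the 27099 genes tested, 15.3% were called, 7.83% higher and 7.42% lower. The members were picked with earlier results of these data known, and of 3 further family genes tested 0 were called. The groups did not overlap in the same 5 members, against 23.6% of all genes. The members' median log2 difference was 0.45, against -0.07 over all genes. All differences are Hoxa9 minus eGFP (4 arrays each). A level serves to compare arrays for 1 probe and not to rank genes, because probes differ in brightness.

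**Figure D1:**
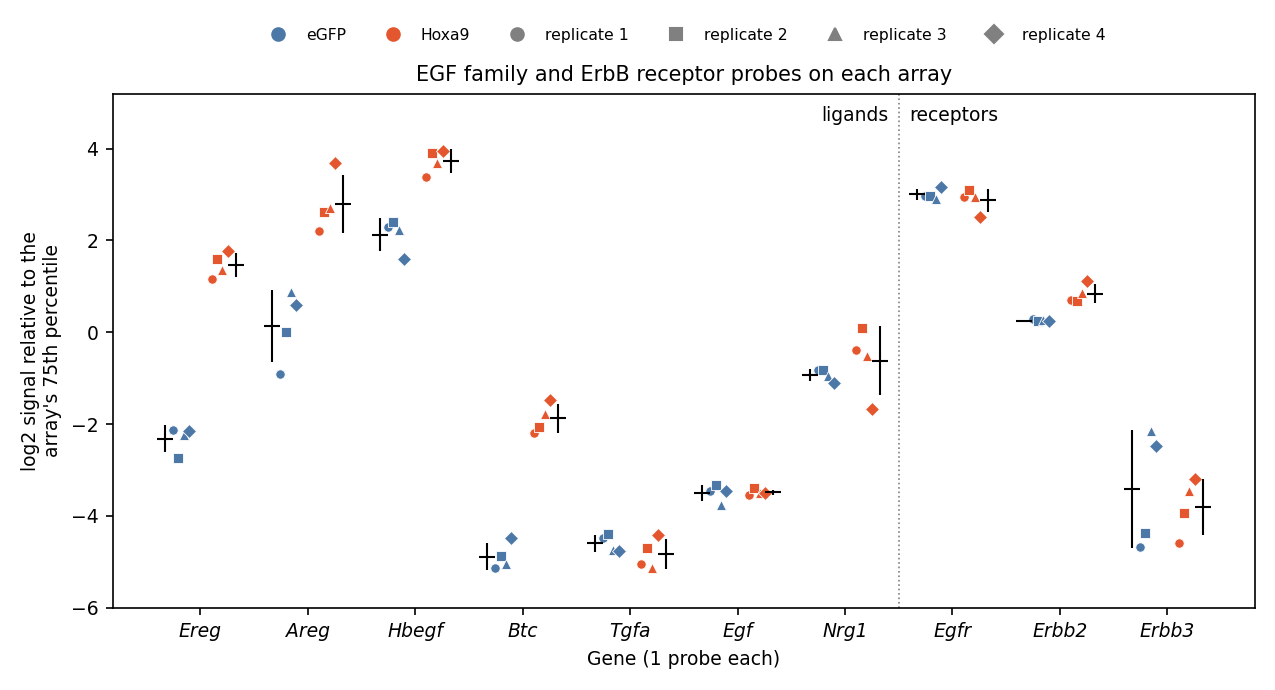
Level of each member on each array (log2 signal relative to the array's 75th percentile; Egfr is shown by its brightest probe). Symbols mark the replicate number, blue the eGFP arrays and orange the Hoxa9 arrays, and crosses give mean ± SD of 4 arrays; heights of different genes are not comparable. The groups are apart for Ereg, Areg, Hbegf, Btc and Erbb2 and overlap for the other 5.

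Ereg had the largest difference of the members. The eGFP arrays read -2.13, -2.74, -2.23 and -2.15 in replicates 1 to 4, and the Hoxa9 arrays 1.16, 1.60, 1.37 and 1.76. The lowest Hoxa9 array thus stood 3.29 above the highest eGFP array, and only eGFP replicate 2 lay away from its group. The mean rose from -2.31 ± 0.29 (SD, n = 4) to 1.47 ± 0.26, which is 13.8-fold (log2 difference 3.78, SE 0.20, adjusted p = 4.07e-05, limma). Epiregulin is a ligand of EGFR and ErbB4 that many cells express at low level until they are stimulated.

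Btc was dim in the control cells and rose 8.06-fold. Its eGFP arrays read -5.14, -4.87, -5.05 and -4.48, and its Hoxa9 arrays -2.18, -2.07, -1.77 and -1.48. The lowest Hoxa9 array stood 2.29 above the highest eGFP array (log2 difference 3.01, SE 0.22, adjusted p = 0.000107, limma). The size of this rise depended on how background was treated, and with normexp correction it was 1.47 (SE 0.15, adjusted p = 0.00012). Betacellulin binds EGFR and ErbB4.

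Areg was the most variable of the ligands that rose. The eGFP arrays read -0.90, 0.01, 0.87 and 0.59, a spread of 0.78 (SD, n = 4), and the Hoxa9 arrays 2.20, 2.61, 2.70 and 3.69. Control replicate 1 was lowest and Hoxa9 replicate 4 highest, and both lay on slide 1. Areg rose 6.31-fold (log2 difference 2.66, SE 0.44, adjusted p = 0.00483, limma), and the groups stood 1.33 apart at their nearest. Within the 3 slides it differed by 4.14, 1.54 and 2.11. Amphiregulin binds EGFR alone and is shed by ADAM17.

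Hbegf was bright in both groups. Its eGFP arrays read 2.29, 2.39, 2.23 and 1.60, and its Hoxa9 arrays 3.38, 3.91, 3.69 and 3.95. The control array of replicate 4 was the lowest, and the groups were 0.99 apart at their nearest. Hbegf rose 3.04-fold (log2 difference 1.61, SE 0.22, adjusted p = 0.00194, limma). Its product is a membrane-bound growth factor that can also act on neighbouring cells without being shed.

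The rises of these 4 ligands were seen on every slide and in every same-numbered pair. Because their groups do not overlap, any slide or pairing must show a rise, so only the sizes are of interest. Slide 1 held only replicate 4 of the Hoxa9 arrays, and slide 2 only replicate 3 of the eGFP arrays. Slide 3 held only eGFP replicate 4 and Hoxa9 replicate 3. Within slides 1, 2 and 3, Ereg differed by 4.20, 3.61 and 3.52, Btc by 3.53, 2.93 and 2.70, and Hbegf by 1.61, 1.42 and 2.09. Within the 4 same-numbered pairs the smallest rise was 3.29 for Ereg, 2.81 for Btc, 1.83 for Areg and 1.09 for Hbegf. Among the Hoxa9 arrays, replicate 4 was highest and replicate 1 lowest for all 4 ligands. Areg and Btc took the same order over these 4 arrays as the Hoxa9 probe itself. With 4 arrays this is a description only.

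The other 3 ligands did not pass the test. Tgfa read -4.49, -4.40, -4.74 and -4.76 on the eGFP arrays and -5.05, -4.71, -5.13 and -4.41 on the Hoxa9 arrays, which overlap (log2 difference -0.23, 95% confidence interval -0.68 to 0.23, adjusted p = 0.493, limma). Egf, the founding ligand of the family, read -3.46, -3.33, -3.76 and -3.46 against -3.53, -3.40, -3.50 and -3.49 (log2 difference 0.02, interval -0.30 to 0.34, adjusted p = 0.937, limma). The intervals of Tgfa and Egf leave out a rise of the size of the 4 ligands above. The Tgfa probe was dim, however, and its 10 spots per array had an SD of 0.46 to 0.93. For Egf this SD was 0.13 to 0.29.

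Nrg1, the ligand of ErbB3 and ErbB4, was spread over the Hoxa9 arrays. It read -0.82, -0.83, -0.96 and -1.09 on the eGFP arrays and -0.38, 0.08, -0.51 and -1.68 on the Hoxa9 arrays. Hoxa9 replicates 1 to 3 lay above every control and Hoxa9 replicate 4 below every control (log2 difference 0.31, interval -0.48 to 1.09, adjusted p = 0.587, limma). Without that array the difference was 0.66 (adjusted p = 0.0652), still not called. Within slides it was -0.85, 0.81 and 0.59, the first of these resting on Hoxa9 replicate 4. The Nrg1 probe carries the transcript NM_178591, and other forms of this gene with many promoters were not measured.

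**Figure D2:**
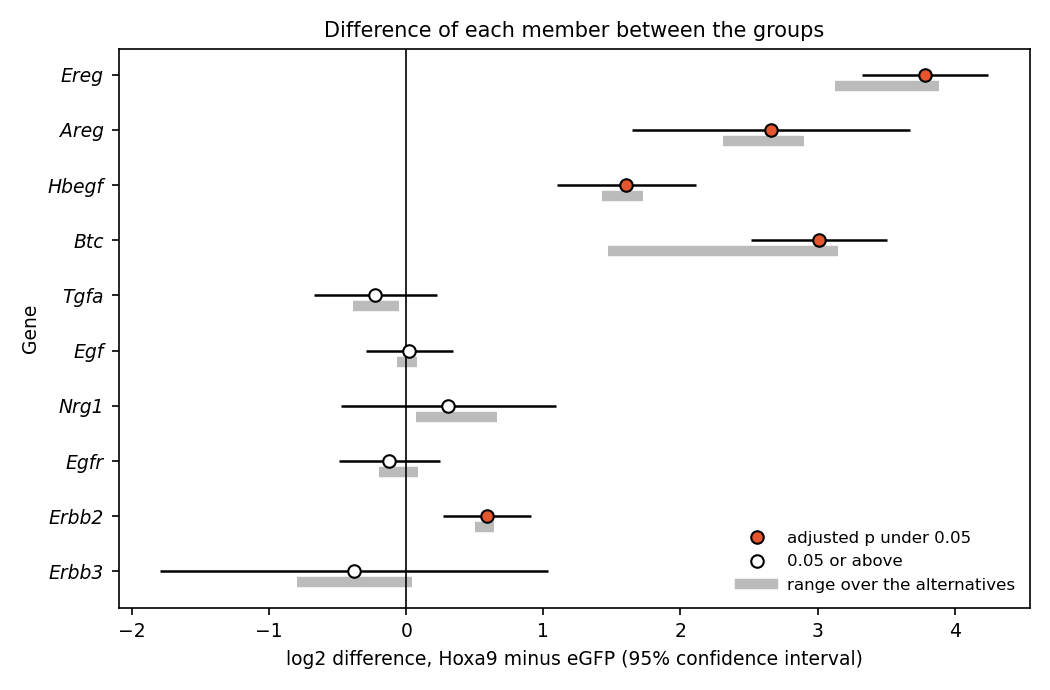
Log2 difference of each member (Hoxa9 minus eGFP) with its 95% confidence interval from limma, n = 4 arrays per group; the grey bar spans the values under the 20 alternatives. The 4 ligands that rose lie between 1.61 and 3.78, Erbb2 at 0.59, and the intervals of the other 5 include 0; the grey bar of Btc reaches down to 1.47.

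Among the receptors, Egfr was read by 3 probes with 2 transcript accessions. The brightest, of NM_207655, read 2.96, 2.97, 2.91 and 3.16 on the eGFP arrays and 2.94, 3.1, 2.95 and 2.52 on the Hoxa9 arrays. Only Hoxa9 replicate 4 stood apart, and the difference was -0.12 (SE 0.16, interval -0.49 to 0.25, adjusted p = 0.646, limma). The probes of NM_007912 differed by 0.10 (SE 0.21, adjusted p = 0.775) and 0.28 (SE 0.17, adjusted p = 0.347, limma on every kept probe, of which 13.5% were called). No Egfr probe was called, and the interval of the brightest leaves out a rise of the size of Ereg, Btc, Areg or Hbegf. The second NM_007912 probe read -0.96, -1.11, -1.18 and -0.68 against -0.92, -0.73, -0.66 and -0.50.

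Erbb2, the receptor without a ligand of its own, rose 1.50-fold. Its eGFP arrays were nearly equal, at 0.29, 0.24, 0.26 and 0.24, and its Hoxa9 arrays read 0.71, 0.69, 0.86 and 1.12. The groups did not overlap and were 0.40 apart at their nearest (log2 difference 0.59, SE 0.14, adjusted p = 0.0246, limma). The call was close to the threshold. It was lost with a median shift (adjusted p = 0.0625), without any single eGFP array (0.0531 to 0.0745) and without Hoxa9 replicate 3 (0.0658), while the difference stayed at 0.50 to 0.64 over all alternatives. Within slides it was 0.85, 0.44 and 0.62. The probe was printed 10 times on each array, and these spots had an SD of 0.036 to 0.29.

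Erbb3, the partner of Nrg1, was split within both groups. The eGFP arrays read -4.67, -4.37, -2.15 and -2.48 and the Hoxa9 arrays -4.60, -3.94, -3.46 and -3.20. In both groups replicates 1 and 2 were lower than replicates 3 and 4. The difference was -0.38 (SE 0.62, interval -1.80 to 1.04, adjusted p = 0.714, limma), and blocking on the replicate number left it at the same value with an SE of 0.32 (adjusted p = 0.448). Within slides it ran from 1.32 to -2.12. ErbB3 is also a receptor of Schwann cells, of which 3 of 6 markers were measured, none of them called. Sox10 read -1.39, -1.49, -1.36 and -1.27 on the eGFP arrays and -1.36, -2.01, -1.32 and -1.17 on the Hoxa9 arrays.

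The family has 5 further genes, of which Epgn, Nrg2 and Nrg4 were measured well enough to test, and 0 were called (limma with group as the only term, 0 also at an unadjusted p under 0.05). Epgn (epigen), a ligand of EGFR, read -4.14, -3.38, -3.33 and -4.04 on the eGFP arrays and -3.34, -2.94, -3.57 and -3.60 on the Hoxa9 arrays (log2 difference 0.36, SE 0.25, adjusted p = 0.394, limma). The neuregulin gene Nrg2 differed by 0.88 (SE 0.51), and its other tested probe by -0.20 (SE 0.70). The first Nrg2 probe was higher in all 4 same-numbered pairs, by 1.14, 1.42, 0.43 and 0.53, and under a replicate block its SE was 0.22 (adjusted p = 0.0543, limma). Nrg4 differed by 0.13 (SE 0.40). Erbb4, the remaining receptor, and Nrg3 were not well above background on any array. The 2 Nrg4 probes too dim to be tested differed in direction: 1 was well above background on 0 eGFP and 3 Hoxa9 arrays, and the other on 1 eGFP array and 0 Hoxa9 arrays.

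Of the ligands that rose, 3 share a chromosomal location. The members were chosen with earlier results of these data known, and the neighbouring ligand gene Epgn was not among them. Epgn, Ereg, Areg and Btc are neighbours on chromosome 5, within 323 kb from the Epgn probe to the Btc probe. Ereg, Areg and Btc rose by 3.78, 2.66 and 3.01, and Epgn, at -58.4 kb from the Ereg probe, was not called. Between Epgn and Ereg, at -42.0 to -41.9 kb, lay 3 probes of a locus that the array design names only by its position. They rose by 0.99, 1.19 and 0.66 (adjusted p = 0.00486, 0.0131 and 0.0321, limma over all kept probes). Hbegf lies on another chromosome.

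**Figure D3:**
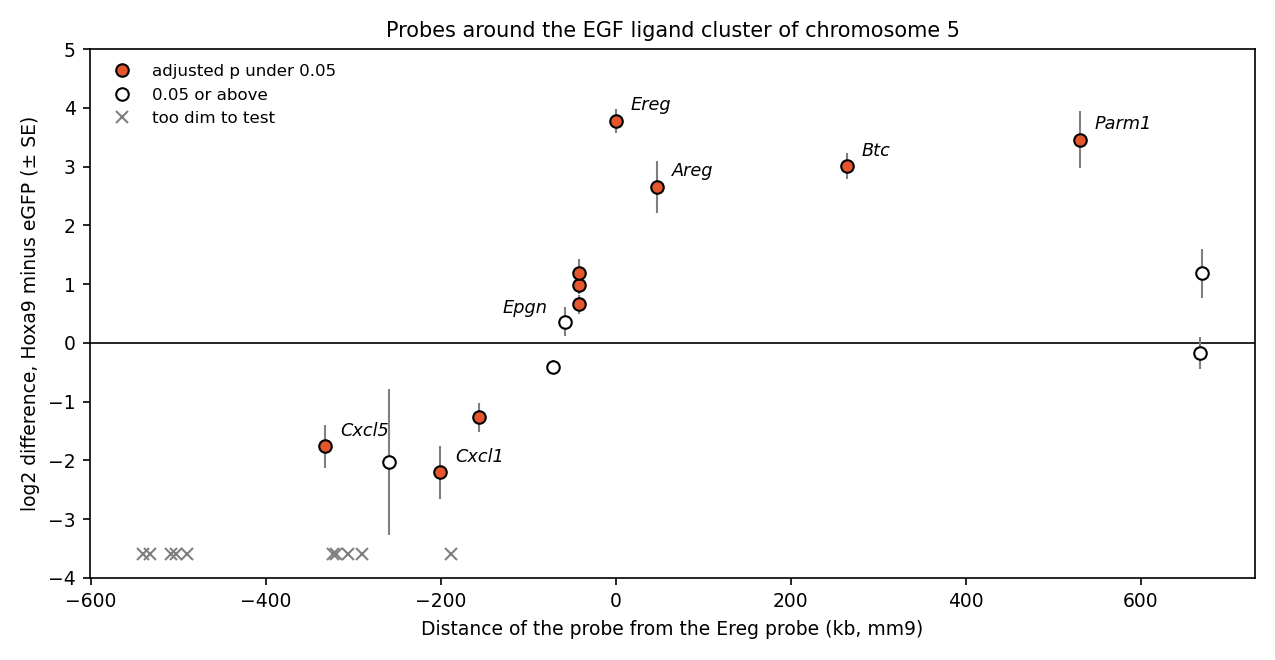
Log2 difference (Hoxa9 minus eGFP, ± SE) of every probe from 500 kb before Epgn to 500 kb after Btc, against its distance in kb from the Ereg probe (mm9). Filled points had an adjusted p under 0.05 over all kept probes and crosses at the bottom mark probes too dim to test, whose height has no meaning; Ereg, Areg and Btc lie at 2.66 to 3.78 and Epgn at 0.36.

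The promoters of neighbouring members were compared in RefSeq sequence of GRCm38.p6, a later build than that of the array files, over the 250 bases before each start. Entries were found for Epgn, Areg, Btc, Tgfa, Egf, Egfr and Erbb2, and Ereg, Hbegf, Nrg1 and Erbb3 had none in the table. The 3 entries from the chromosome 5 group are shown because Areg and Btc rose while Epgn was not called. Capitals mark a TATA box (TATAAA), a cAMP response element (TGACGTCA) or an AP-1 site (TGANTCA), on either strand.
Epgn, chr5:91027267-91027516, plus strand: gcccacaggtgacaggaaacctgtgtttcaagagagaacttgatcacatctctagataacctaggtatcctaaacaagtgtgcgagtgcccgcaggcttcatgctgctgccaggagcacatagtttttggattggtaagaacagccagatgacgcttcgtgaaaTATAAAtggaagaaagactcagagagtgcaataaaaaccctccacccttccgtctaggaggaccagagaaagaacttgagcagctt
Areg, chr5:91139349-91139598, plus strand: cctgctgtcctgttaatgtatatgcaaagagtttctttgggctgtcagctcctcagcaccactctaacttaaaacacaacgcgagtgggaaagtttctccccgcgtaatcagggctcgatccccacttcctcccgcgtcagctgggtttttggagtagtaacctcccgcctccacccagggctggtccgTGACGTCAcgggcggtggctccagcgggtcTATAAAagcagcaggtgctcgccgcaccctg
Btc, chr5:91402995-91403244, minus strand: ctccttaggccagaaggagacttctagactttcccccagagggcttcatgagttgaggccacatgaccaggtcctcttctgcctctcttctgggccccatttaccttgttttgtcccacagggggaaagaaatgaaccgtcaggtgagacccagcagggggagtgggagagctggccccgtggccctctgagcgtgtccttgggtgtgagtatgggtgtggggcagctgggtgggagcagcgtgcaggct
The Areg window held a cAMP response element starting 61 bases before the gene's start and a TATA box starting 31 bases before it. The Epgn window held a TATA box 86 bases before the start, and the Btc window held none of the 3 motifs. Of all 32851 promoter entries, 1.55% held the response element, 12.4% the TATA box and 6.75% the AP-1 site. A Hox-type core (TTTAT), held by 37.3% of entries, occurred once in Areg and at 2 positions in Epgn, but in Areg it is the reverse strand of the TATA box, as is 1 of those in Epgn. A longer Hox-Pbx site (TGATTTAT, 0.837% of entries) was found in none of the 3. Such matches describe letters only.

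The genes that carry, shed and limit the ErbB signal were read from a list of 89, of which 86 were bright enough to test. Of these, 10 were higher and 5 lower (17.4%, against 15.3% of all genes), with a median log2 difference of 0.13. Among 8 genes for ligand shedding and trafficking, 1 was higher and 0 lower (12.5%). It was Rhbdf2, which encodes iRhom2, a carrier and cofactor of ADAM17. Rhbdf2 read 0.21, 0.17, 0.37 and 0.10 on the eGFP arrays and 1.48, 1.07, 0.92 and 1.35 on the Hoxa9 arrays, which do not overlap (1.99-fold, SE of the log2 difference 0.16, adjusted p = 0.00464, limma). The protease gene Adam17 itself differed by 0.23 (SE 0.25, adjusted p = 0.586).

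Of 32 adaptor and signal relay genes, 5 were higher and 0 lower (15.6%, against 15.3% of all genes), with a median of 0.11. Nck2, an SH2-SH3 adaptor that binds phosphorylated receptors, read 2.74, 2.40, 2.82 and 2.97 against 4.37, 4.84, 4.48 and 4.82 (log2 difference 1.89, SE 0.18, adjusted p = 0.000386, limma). Shc1, the adaptor that links receptors to Grb2 and Ras, rose by 1.20 (SE 0.16, adjusted p = 0.0015). The transcription factors Stat3 and Stat5a rose by 1.82 and 0.89. Akt2 rose by 0.74 (adjusted p = 0.0336), though its 4 probes disagreed, 1 of them differing by -0.17. The call for Akt2 was lost with the slide as a block (adjusted p = 0.0762) and without eGFP replicates 1, 2 or 3 or Hoxa9 replicates 1, 3 or 4 (0.0677 to 0.101). It was also lost with no filter on dim probes (0.0542) and with the mean of the gene's probes, which gave 0.38 (0.13). Grb2, Sos1, Hras and Mapk3, genes of the Ras-MAP kinase route, were not called, at -0.18, -0.02, 0.09 and 0.07. Under a replicate block the kinase gene Map2k1 was called as well (0.74, adjusted p = 0.0326, against 0.123 without the block).

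Of 25 genes for receptor turnover and negative feedback, 1 was higher and 1 lower (8%, against 15.3% of all genes), with a median of 0.14. Spry4, an inhibitor of Ras-MAP kinase signalling, rose by 0.98 (SE 0.20, adjusted p = 0.0139, limma). The MAP kinase phosphatase gene Dusp5 decreased by 1.43 (SE 0.28, adjusted p = 0.011). The direct ErbB inhibitors Errfi1 and Lrig1 differed by -0.09 and 0.05 and were not called, nor was the ubiquitin ligase gene Cbl (-0.09). Larger differences that were not called were those of Spry1, Ptpn1, Cblb and Lrig3, at 0.75, -0.61, -0.53 and -0.50 (adjusted p = 0.0527, 0.0669, 0.241 and 0.117, limma).

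Of 18 early response genes, 3 were higher and 4 lower (38.9%, against 15.3% of all genes), with a median of 0.10. Fos read -2.42, -2.58, -1.85 and -1.84 on the eGFP arrays and -0.97, -0.96, -0.50 and -0.14 on the Hoxa9 arrays (log2 difference 1.53, SE 0.26, adjusted p = 0.0055, limma). Its relative Fosl2 rose by 1.44, though its other probe, at 0.92, was not called on its own (adjusted p = 0.147). The zinc finger factor gene Egr1 rose by 0.88. The related AP-1 gene Fosl1 went the other way, from 2.93, 2.84, 2.34 and 2.30 to 1.25, 1.35, 1.18 and 0.78 (log2 difference -1.46, SE 0.21, adjusted p = 0.00228). Phlda1, Klf10 and the ETS factor Etv4 decreased by 0.89, 0.73 and 0.94. The call for Etv4 was lost under a replicate block (adjusted p = 0.0518) and without eGFP replicates 1 or 2 or Hoxa9 replicates 1, 2 or 3 (0.0593 to 0.0843). Its other probe decreased by 1.15 (SE 0.18, adjusted p = 0.00464, limma over all kept probes). The call for Egr1 was lost without eGFP replicate 4 or Hoxa9 replicates 1 or 4 (0.0533 to 0.0625). A median shift ended the calls for Egr1, Klf10 and Spry4 (0.0559, 0.0543 and 0.0528).

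**Figure D4:**
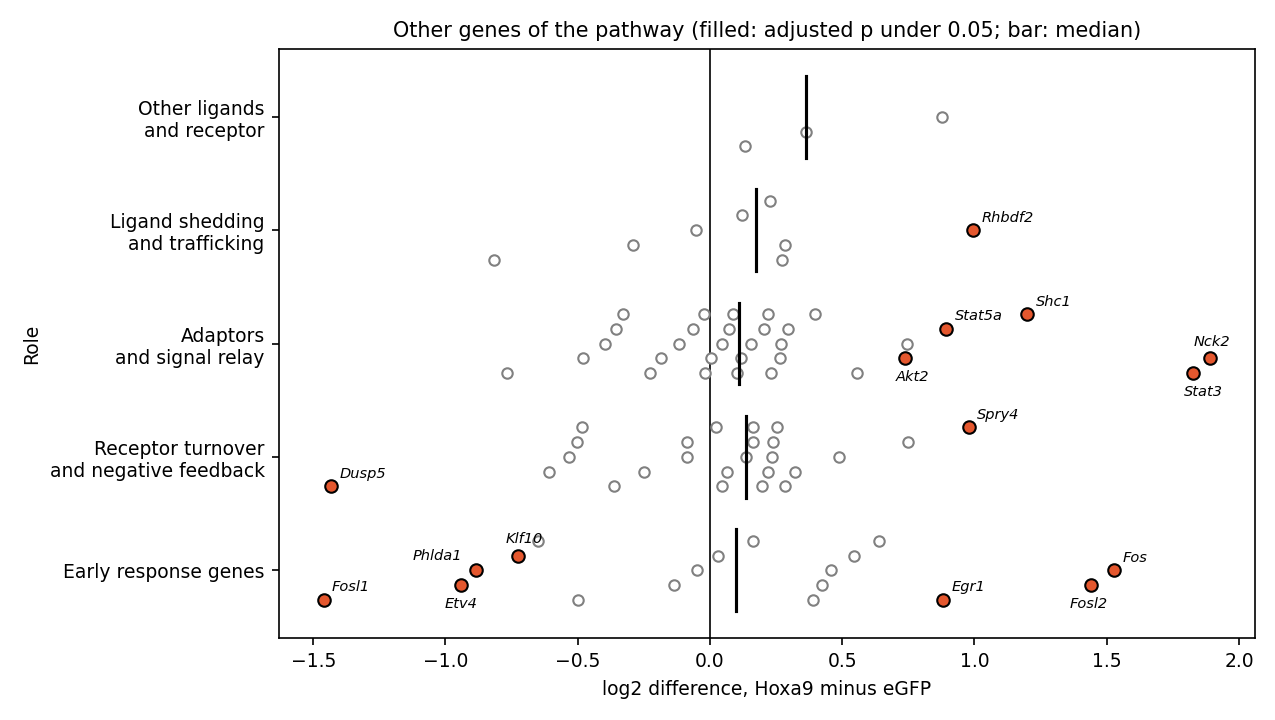
Log2 difference (Hoxa9 minus eGFP) of the 86 tested pathway genes by role, each point 1 gene, with the role's median as a bar and the vertical scatter only for legibility. Filled, named points had an adjusted p under 0.05: 10 higher and 5 lower, with early response genes on both sides of 0.

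The pattern over the arrays that was most like Ereg was sought among 15333 named genes with a RefSeq mRNA accession. Adamts9, a secreted metalloproteinase gene, had a Pearson r of 0.997 with Ereg over the 8 arrays. Plpp3, a lipid phosphate phosphatase gene, and Cfap69, a cilia gene, had 0.995 each. Cyb561 and the interleukin 11 receptor gene Il11ra1 had 0.994 each. These 5 genes rose by 3.22, 2.80, 1.45, 1.65 and 2.11 (adjusted p = 2.78e-05, 3.38e-05, 0.000543, 0.000207 and 0.000108, limma). Most of each r comes from the difference between the groups, which the 8 arrays share. After each group's mean was removed, r was 0.852, 0.641, 0.891, 0.697 and 0.677, in the same order. Choosing genes for the highest r over all arrays also selects for these values, so they are no separate sign of likeness.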

How the data were processed

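Each of the 8 samples was hybridised to 1 Agilent mouse 8x60K array. The deposited intensity values are scanner output that the authors made with Agilent Feature Extraction 10.7.3.1, per the submitters' processing notes and file headers, with background subtraction and detrending within arrays and no scaling between them. A deposited table of processed values, held here as a score because most cells lack the decimal point, was repaired and used only as an alternative. At least 99.998% of its values then lay within 0.05 of the log2 scanner signal plus a constant per array. How it was scaled is not stated.

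Control and outlier spots were left out, repeated spots averaged in log2, and each array's 75th percentile subtracted. Kept were probes flagged above background on 4 or more of the 8 arrays (40757), with the brightest probe per gene (27099 genes). Names were updated through a RefSeq table (27542 probes matched). The test was limma 3.58.1 (R 4.3.3), two-sided, with group as the only term and Benjamini-Hochberg adjustment over all genes. The code was tested on simulated data, with 200 of 27099 genes changed. There 22% of changes of 1 log2 unit and 69% of changes of 2 were called, so a gene not called may still differ. These shares depend on how many genes change, and more were called in the real data.

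Slides 1, 2 and 3 held both groups and matched the scans. Deviations from group means correlated at 0.143, 0.228, 0.129 and 0.186 in same-numbered pairs. Of the 12 unlike-numbered pairs, eGFP 4 with Hoxa9 3 (0.188) and eGFP 3 with Hoxa9 4 (0.137) were also above 0.1. Since every same-numbered value was above 0.1, the experiment number in the titles was taken to pair samples and used as a block in an alternative. The other alternatives were other scalings, normexp correction (offset 50), other filters, the deposited table, averaged or single probes, the slide as a block, array weights, a trended robust prior, each array left out in turn, and a 2-fold minimum.

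Members and lists were chosen with earlier results of these data known. All members are named, with, from each role of the pathway list, up to 4 called genes of lowest adjusted p, all other family genes, Hoxa9 and the 5 genes most like Ereg. Further genes of that list, the probes around the ligand cluster, the promoter motifs and the marker genes named were chosen after their values were seen. Those genes of the list were Akt2, Klf10, Egr1, Etv4, Map2k1, Adam17, Grb2, Sos1, Hras, Mapk3, Errfi1, Lrig1, Cbl, Spry1, Ptpn1, Cblb and Lrig3. Hras and its older name Hras1 were counted once. Some single-gene values are not reported here.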

Additional observations from a re-analysis of the deposited data

Results flagged for a closer look

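In the eGFP group, replicate 2 stood apart from the others for Ereg. It read -2.74, and its gap to the next array was 0.845 of the group's range, above Dixon's critical value for a group of 4. Of the 20 groups of 4 arrays examined over the members, 1 was marked in this way, and chance marks about 1 in 20. Without that array Ereg still rose, by 3.64 (adjusted p = 0.00024, limma).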

How the results depend on the processing

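Over 20 alternatives for each of the 10 members, 191 of 200 values kept their call, 9 fell short of the threshold and 0 changed direction among called members. Ereg and Btc were called in all 20, at 3.13 to 3.89 and 1.47 to 3.15. Areg and Hbegf lost the call only with a 2-fold minimum (adjusted p = 0.103 and 0.324), and Erbb2 in 7 alternatives, 5 of which left out 1 array. With the 2-fold minimum 2 members, 1 higher and 0 lower pathway genes (1 lower at an unadjusted p under 0.05), and 389 higher and 177 lower genes overall were called. The members called higher numbered 4 to 5 when 1 array was left out, the pathway genes 8 to 10 higher and 4 to 6 lower, and all genes 1580 to 1906 higher and 1293 to 1891 lower, the lowest of these without eGFP replicate 2. The count of lower pathway genes was 8 with normexp correction, 9 with a trended robust prior and 10 with array weights. With the replicate block 5 members were higher and 0 lower, and of the pathway genes only Map2k1 and Etv4 changed call. The other Hoxa9 probe differed by -1.74, opposite to the first, and the cause was not tested. Changing the scaling moved the median of all genes from -0.07 to between -0.10 and -0.04. With normexp correction the difference was 1.47 for Btc, -0.18 for Erbb3, -0.06 for Tgfa and 0.11 for Nrg1. The 4 arrays per group limit every value.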

Other observations

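Around the EGF ligand genes of chromosome 5, the lower probes all lay before Epgn. Of 25 probes from 500 kb before Epgn to 500 kb after Btc, 15 were bright enough to test, and 7 were higher and 3 lower (limma over all kept probes). The window was drawn around the members: the higher probes are those of Ereg, Areg and Btc, 3 probes of 1 locus, and Parm1, so this count describes the window only. On the side of Epgn lie the CXC chemokine genes. Cxcl1 read -1.07, -1.67, -2.12 and -3.0 on the eGFP arrays and -3.72, -4.27, -3.67 and -5.03 on the Hoxa9 arrays, and decreased by 2.21 (SE 0.45, adjusted p = 0.0145). Cxcl5 decreased by 1.76 (SE 0.36, adjusted p = 0.0148) and the clone E330024J20Rik by 1.27 (SE 0.25), the latter well above background on only 1 Hoxa9 array, while Ppbp, Cxcl3 and Cxcl15 were not well above background on any array. Beyond Btc, Parm1, which encodes a mucin-like membrane protein, read -0.70, -0.58, 0.72 and 1.46 on the eGFP arrays and 3.31, 3.40, 3.97 and 4.05 on the Hoxa9 arrays, and rose by 3.46 (SE 0.49, adjusted p = 0.0025). These neighbours were looked up after the members' values had been seen.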
